A study of Mus musculus with 2 samples.

Results

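The 10 genes described here build, load and switch on MHC class II, the surface complex that shows peptides to CD4+ T cells. They are H2-Aa, H2-Ab1, H2-Eb1, Cd74, H2-DMa, H2-DMb1, H2-DMb2, H2-Oa, H2-Ob and Ciita, taken by symbol from the 28692 genes of the count tables, where each symbol has 1 row. Their levels were followed over 6 kinds of peritoneal cavity cell in 2 libraries: large macrophages, Folr2/Retnla macrophages, Cd209a cells, B-1 cells, B-2 cells and T cells. The cells came from germ-free C57BL/6 mice, which carry no microbes. A library labelled WT was set against a library labelled Xbp1dIEC, a name used for mice that lack the transcription factor Xbp1 in intestinal epithelial cells; the Cre driver is not given in the sources used here. Each library pooled cells of 4 male mice of 10 weeks, and both were made by droplet sequencing of transcript 3′ ends (10x Chromium). Intestinal epithelium was not sampled, so the deleted gene gives no check of the labels in these cells.

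Classical class II is a pair of chains: H2-Aa and H2-Ab1 encode the I-A pair, and H2-Eb1 the beta chain of I-E. C57BL/6 mice are known not to make the I-E alpha chain, so H2-Eb1 RNA in this strain is not a sign of I-E on the surface. Cd74, the invariant chain, fills the groove during transport, H2-DM (H2-DMa with H2-DMb1 or H2-DMb2) exchanges its remnant for peptide in endosomes, and H2-O (H2-Oa with H2-Ob) restrains H2-DM. Ciita encodes the coactivator that switches on the others; it does not bind DNA itself but is held by factors bound to the X and Y boxes of their promoters. Dendritic cells and B cells are the textbook class II cells of the peritoneal cavity, large macrophages are known for little of it, and mouse T cells make hardly any.

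Since Ciita acts through the X and Y boxes, promoters of the members were searched for a pattern taken from these boxes. Sequences are from RefSeq on GRCm38.p6, in a promoter table in which 7 of the 10 genes were matched, with 8 promoters in all; H2-Ab1, Cd74 and Ciita were not analysed here. The search was for AAC, 24 to 28 bases of any kind, then GATTGG, on either strand of the 250 bases before a gene's start. AAC was taken as a part of the X box, and GATTGG is the core of the Y box. The pattern was drawn up after the promoters had been read, so its count is a description. It was present in 6 of the 8 member promoters, belonging to 6 of the 7 genes, and in 307 of all 32851 promoters (0.935%). GATTGG alone was in 7 of 8 member promoters and in 14.6% of all promoters. The 4 windows below lie outside annotated exons, are written 5′ to 3′ on the gene's strand, and have AAC and GATTGG in capitals. They are at chr17:34287859-34287914 (minus strand, H2-Aa), chr17:34305766-34305820 (plus strand, H2-Eb1), chr17:34145116-34145171 (plus strand, H2-DMb2) and chr17:34238808-34238860 (plus strand, H2-Ob).
H2-Aa: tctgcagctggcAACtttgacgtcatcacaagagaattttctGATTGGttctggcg
H2-Eb1: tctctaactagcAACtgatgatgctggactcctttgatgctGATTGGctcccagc
H2-DMb2: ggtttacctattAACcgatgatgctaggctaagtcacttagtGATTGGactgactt
H2-Ob: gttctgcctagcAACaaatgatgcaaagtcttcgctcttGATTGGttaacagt
The spacing between the capitals was 27 bases in H2-Aa and H2-DMb2, 26 in H2-Eb1 and 24 in H2-Ob, and the Y box began 49, 91, 60 and 58 bases before the RefSeq start in H2-Aa, H2-DMb2, H2-Eb1 and H2-Ob. H2-DMb1 and H2-Oa hold the pattern too, both with 27 bases between, but their windows overlap annotated exons and are not printed. Of the printed windows, that of H2-DMb2 lies wholly inside its annotated gene, and the others lie outside theirs. The H2-DMb1 and H2-DMb2 windows had the same base at 49 of 56 positions (87.5%), although the balance of these genes differed between cell types, as their values show. H2-DMa had 2 promoters in that table, neither with the pattern.

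All 10 gene identifiers matched GENCODE M21 (GRCm38) as protein-coding genes. From low to high coordinate on chromosome 17 they are H2-Oa (34092340 to 34095234), H2-DMa (34119541 to 34139101), H2-DMb2 (34143307 to 34151555), H2-DMb1 (34153072 to 34160230), H2-Ob (34238903 to 34254414), H2-Ab1 (34257689 to 34269419), H2-Aa (34282744 to 34287823) and H2-Eb1 (34305867 to 34316674). H2-Aa is on the minus strand, and the other 7 are on the plus strand. Ciita lies on chromosome 16 from 10480059 to 10528418 and Cd74 on chromosome 18, both on the plus strand. Reads that map equally to related genes are a risk for 1 pair only: of the 45 pairs of members, H2-DMb1 and H2-DMb2 alone shared stretches of 50 bases in their transcripts. They shared 369 of them, out of 1355 in H2-DMb1 and 1741 in H2-DMb2. In the last 400 bases of the transcripts, where 3′ reads gather, 27 of 351 H2-DMb1 stretches also occurred in H2-DMb2, and none of 357 H2-DMb2 stretches occurred in H2-DMb1.

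The WT library held 6204 barcodes with 56229330 unique molecular identifiers (UMIs, each a counted transcript copy) and the Xbp1dIEC library 6246 with 49703442, at medians of 8323.5 and 7279.5 UMIs. After filters and removal of called doublets, 6058 and 6113 cells remained, and 3770 (62.2%) and 3653 (59.8%) fell in a gate set by marker UMIs, none of them a class II gene. The gates held 2247 WT and 2165 Xbp1dIEC large macrophages, 167 and 169 Folr2/Retnla macrophages, 77 and 70 Cd209a cells, 246 and 456 B-1 cells, 746 and 566 B-2 cells and 287 and 227 T cells. Genes that had no part in setting the gates compared were read as a check of the names: the macrophage gene Cbr2 was at 100.8 and 127 CPM (UMIs of the gene per 1000000 UMIs summed over the gate's cells) in Folr2/Retnla macrophages, against 12.1 and 11.1 in large macrophages. Mgl2 was at 550 and 799 CPM in Cd209a cells, against 10.3 and 7.75 in Folr2/Retnla macrophages. S100a6 was at 4479 and 4499 CPM in B-1 cells, against 1415 and 1591 in B-2 cells. The libraries had 58 cell barcodes in common. No p-value is given, since each genotype is a single pool. Bracketed ranges are 95% confidence limits from counting alone, and a difference between the pools cannot be told apart from one between the genotypes. For UMI levels, UMI shares and their ratios the limits leave out the spread between cells, so they are too narrow where cells are uneven.

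Free RNA in the droplets gives every cell some class II UMIs, so each level is read against an ambient estimate. It was set from immunoglobulin genes in macrophages, Cd209a cells and T cells, and from macrophage genes in B cells: their CPM in a gate, over their CPM in all barcodes, is the foreign share. The foreign share was 3.59% in WT and 2.67% in Xbp1dIEC large macrophages, 3.58% and 2.93% in Folr2/Retnla macrophages, 5.54% and 4.14% in Cd209a cells, 4.76% and 3.57% in B-1 cells, 4.99% and 4.59% in B-2 cells and 7.61% and 5.76% in T cells. Multiplying it by a gene's CPM over all barcodes gives the ambient level. For the 10 genes summed it came to 419 CPM in WT and 306 in Xbp1dIEC large macrophages, and to at most 889 CPM, in WT T cells. The T cell estimate may be high, as Ighm, which entered it, was at 216 and 173 CPM there against 35.3 and 29.4 in large macrophages. With Igkc alone the T cell share was 4.97% and 3.58%, and with macrophage genes it was 5.34% and 5.14%. Ighm was also at 148 and 133 CPM in Cd209a cells, where Igkc alone gave a share of 3.21% and 2.49%.

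Summed per gate, class II RNA was most abundant in Cd209a cells, next in B-2 and B-1 cells, lower in Folr2/Retnla macrophages and T cells, and lowest in large macrophages. Large macrophages were at 1.57 times the ambient estimate in both libraries, and T cells at 2.03 and 1.87 times. Summed over the 10 genes, it made up 82304 CPM in WT and 71870 CPM in Xbp1dIEC Cd209a cells. B-2 cells had 31014 and 28322 CPM, and B-1 cells 24033 and 22147 CPM. Folr2/Retnla macrophages stood between the B cells and the T cells, at 8156 and 4625 CPM. T cells had 1801 and 1231 CPM, and large macrophages 657 and 480 CPM. The order of the 6 gates was the same in both libraries, and no neighbouring pair of intervals overlapped. The place of T cells above large macrophages rested on 4 T cells in each library. Without them T cells had 316 and 272 CPM of H2-Aa, H2-Ab1, H2-Eb1 and Cd74. Large macrophages had 428 and 299 CPM of these genes without their own 10 and 3 cells of high class II.

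**Figure D1:**
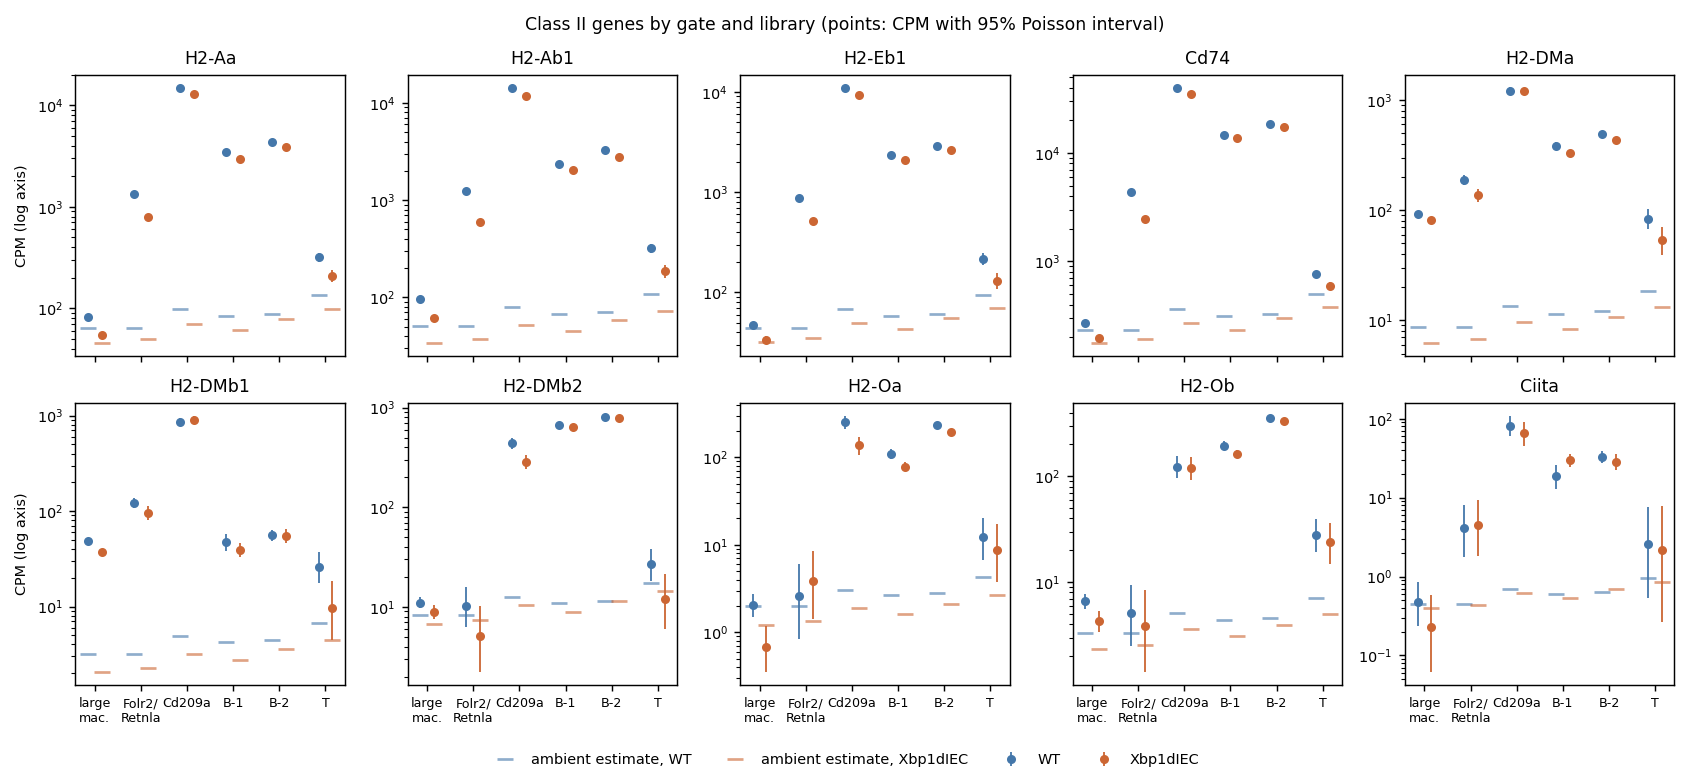
Level of each of the 10 genes (panels) in the 6 gates, as CPM on a log axis, with 95% Poisson intervals for WT (blue) and Xbp1dIEC (orange) and horizontal ticks at the ambient estimate. Classical genes peak in Cd209a cells. In large macrophages they lie at 1.05 (H2-Eb1, Xbp1dIEC) to 1.89 (H2-Ab1, WT) times the ambient estimate. H2-DMa and H2-DMb1 stand further above the ticks there, at 91.5 and 48.1 CPM in WT, and H2-DMb2 and H2-Ob peak in B-2 cells.

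H2-Aa, the alpha chain of I-A, followed the summed order: it was at 14691 CPM in WT and 13023 CPM in Xbp1dIEC Cd209a cells, 4374 and 3848 in B-2 cells, 3436 and 2979 in B-1 cells, 1321 and 797 in Folr2/Retnla macrophages, 319 and 209 in T cells and 81.3 and 54.9 in large macrophages. H2-Ab1, its partner chain, was at 14133 and 11773 CPM in Cd209a cells, 3311 and 2749 in B-2 cells and 2333 and 2051 in B-1 cells. Its macrophage levels were 1242 and 602 CPM in the Folr2/Retnla gate and 96.7 and 61.9 CPM in large macrophages, with 321 and 186 CPM in T cells. Cd209a cells thus carried 3.36-fold (interval 3.27 to 3.45) the H2-Aa and 4.27-fold (4.15 to 4.39) the H2-Ab1 of B-2 cells in WT, and 3.38-fold and 4.28-fold in Xbp1dIEC.

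H2-Eb1, the I-E beta chain, was at 10819 and 9270 CPM in Cd209a cells, 2900 and 2611 in B-2 cells, 2330 and 2102 in B-1 cells and 873 and 520 in Folr2/Retnla macrophages. Cd74 was the most abundant member in every gate, at 39704.5 and 35098 CPM in Cd209a cells, 18469 and 17284 in B-2 cells, 14508 and 13745 in B-1 cells and 4388 and 2455 in Folr2/Retnla macrophages. UMIs are counted at transcript 3′ ends, so levels of different genes were compared without scaling to length. The balance of invariant chain to classical chains differed by cell type. Cd74 made up 50.04% (49.6 to 50.5) of the UMIs of H2-Aa, H2-Ab1, H2-Eb1 and Cd74 in WT Cd209a cells and 50.7% in Xbp1dIEC, against 64.2% (63.7 to 64.6) and 65.8% in B-1 cells and 63.6% (63.3 to 63.9) and 65.2% in B-2 cells. Folr2/Retnla macrophages lay between, at 56.1% in both libraries.

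Among the peptide editors H2-DMa kept the gate order of the classical genes, apart from the large macrophage and T cell pair, over a narrower range, and the beta chains did not. H2-DMa, the alpha chain of H2-DM, was at 1205 CPM in WT and 1192 CPM in Xbp1dIEC Cd209a cells, 485 and 429 in B-2 cells, 386 and 329 in B-1 cells, 186 and 136 in Folr2/Retnla macrophages, 91.5 and 82.1 in large macrophages and 83.0 and 53.1 in T cells. Large macrophages and T cells, the lowest pair, had overlapping intervals in WT (87.6 to 95.5 and 67.1 to 101.4) but not in Xbp1dIEC. Large macrophages were thus 5.31-fold (4.98 to 5.65) below B-2 cells in H2-DMa in WT, but 67.9-fold (66.2 to 69.7) below them in Cd74.

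H2-DMb1 and H2-DMb2, which encode alternative beta chains of H2-DM, differed in their balance between B cells and the other gates. H2-DMb1 was at 855 and 907 CPM in Cd209a cells, 122 and 96.2 in Folr2/Retnla macrophages, 55.5 and 54.6 in B-2 cells, 47.4 and 39.5 in B-1 cells, 48.1 and 37.05 in large macrophages and 26.2 and 9.75 in T cells. Large macrophages and B-1 cells could not be separated in either library. H2-DMb2 was at 796 and 790 CPM in B-2 cells, 671 and 632 in B-1 cells, 438 and 285 in Cd209a cells and 27.1 and 11.9 in T cells. It was down to 11.005 and 8.98 CPM in large macrophages and to 10.3 and 5.16 in Folr2/Retnla macrophages, whose intervals overlapped.

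The share of H2-DMb2 among UMIs of both beta chains sums this up. It was 93.5% (92.6 to 94.3) in WT and 93.5% in Xbp1dIEC B-2 cells, and 93.4% and 94.1% in B-1 cells. Cd209a cells had 33.9% (30.5 to 37.4) in WT and 23.9% (20.6 to 27.5) in Xbp1dIEC, which do not overlap. Folr2/Retnla macrophages had 7.81% (4.84 to 11.8) and 5.10% (2.23 to 9.79), but 20.1% and 10.6% when cells with markers of other lineages were not left out. Large macrophages had 18.6% (16.6 to 20.8) and 19.5% (16.8 to 22.4), where the ambient estimate alone would supply 8.24 of the 11.005 CPM of H2-DMb2 in WT and 6.71 of the 8.98 CPM in Xbp1dIEC. Reads shared by the pair could shift the share, and their part in it was not tested.

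**Figure D2:**
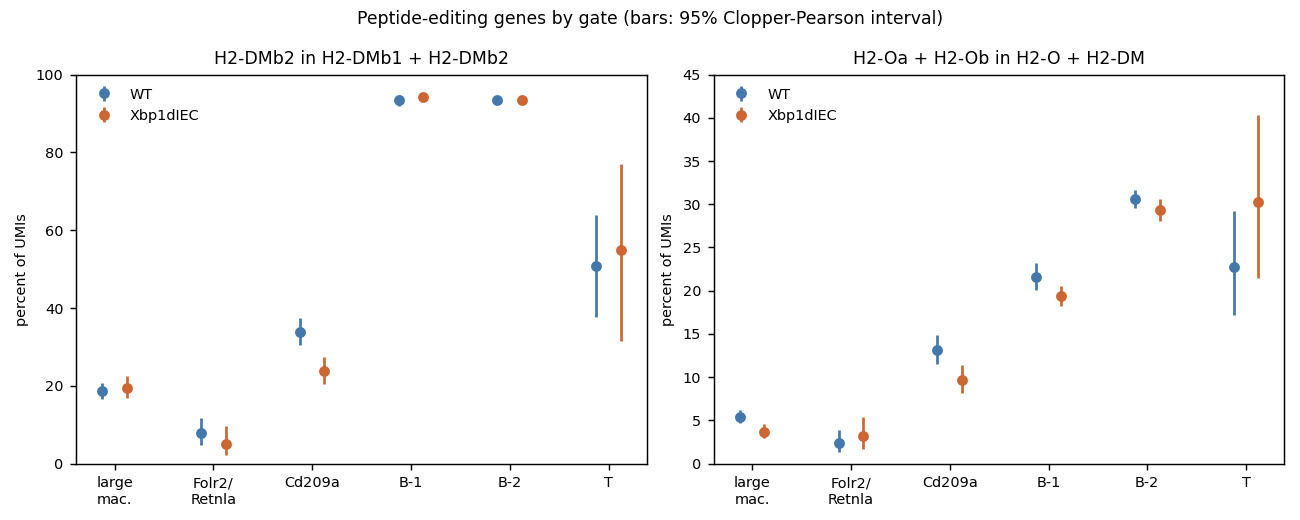
Left, H2-DMb2 as a percent of H2-DMb1 plus H2-DMb2 UMIs; right, H2-Oa plus H2-Ob as a percent of H2-O plus H2-DM UMIs, by gate for WT (blue) and Xbp1dIEC (orange), with 95% Clopper-Pearson intervals. B cells sit at 93.4% or more on the left and Folr2/Retnla macrophages at 7.81% or less; on the right B-2 cells are at 30.6% and 29.3% and Cd209a cells at 13.1% and 9.70%.

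H2-Oa and H2-Ob, the chains of the H2-DM inhibitor, differed in their balance between B cells and Cd209a cells. H2-Ob was at 352 and 333 CPM in B-2 cells, 195 and 162 in B-1 cells and 124 and 119 in Cd209a cells. H2-Oa was at 237 and 195 CPM in B-2 cells, 110 and 78.5 in B-1 cells and 253 and 137 in Cd209a cells. In WT the H2-Oa levels of Cd209a and B-2 cells had overlapping intervals (213 to 298 and 221 to 253), and in Xbp1dIEC B-2 cells were higher (179 to 212, against 107 to 173). In both macrophage gates H2-Oa did not exceed 3.87 CPM and H2-Ob did not exceed 6.61 CPM. H2-O made up 30.6% (29.5 to 31.7) of H2-O plus H2-DM UMIs in WT B-2 cells, 21.6% (20.1 to 23.2) in B-1 cells, 13.1% (11.5 to 14.8) in Cd209a cells and 2.38% (1.34 to 3.89) in Folr2/Retnla macrophages. The same shares in Xbp1dIEC were 29.3%, 19.4%, 9.70% and 3.16%. B-2 cells carried 2.16-fold (1.86 to 2.52) the H2-Oa of B-1 cells in WT, while their Cd74 was 1.27-fold (1.26 to 1.29) that of B-1 cells.

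Ciita, the master switch, was at 81.3 and 65.5 CPM in Cd209a cells, 32.8 and 28.4 in B-2 cells, 18.5 and 29.7 in B-1 cells and 4.13 and 4.52 in Folr2/Retnla macrophages. Large macrophages held 11 Ciita UMIs in WT and 4 in Xbp1dIEC over the whole gate (0.478 and 0.227 CPM), which is 1.05 and 0.566 times the ambient estimate. The Folr2/Retnla levels rested on 8 and 7 UMIs, and were 9.12 and 10.3 times ambient. T cells held 3 and 2 Ciita UMIs. In B-1 and B-2 cells the order differed by library: intervals did not overlap in WT (12.98 to 25.7 in B-1, 27.3 to 39.2 in B-2) and did in Xbp1dIEC.

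In large macrophages most class II RNA was near the level that free RNA would give, but H2-DMa and H2-DMb1 were well above it. The ratio of the measured to the ambient level was 1.16 and 1.12 for Cd74, 1.09 and 1.05 for H2-Eb1, 1.28 and 1.21 for H2-Aa and 1.33 and 1.34 for H2-DMb2, in WT and Xbp1dIEC. H2-Ab1 (1.89 and 1.84) and H2-Ob (1.98 and 1.84) stood somewhat higher. H2-DMa was 10.5 and 13.2 times ambient, and H2-DMb1 15.02 and 17.9 times. After thinning every cell to 2000 UMIs, so that depth is equal, H2-DMa had a UMI in 15.4% of WT and 14.5% of Xbp1dIEC large macrophages, against 10.8% and 7.05% of T cells. The same shares for H2-DMb1 were 8.50% and 7.02% of large macrophages and 0.697% and 0.881% of T cells, and for Cd74 31.4% and 23.7% against 27.2% and 20.7%. Without thinning, at median depths of 9967 and 8081 UMIs in large macrophages and 3586 and 3797 in T cells, H2-DMb1 had a UMI in 34.4% and 24.4% against 1.74% and 1.32%.

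Per-cell counts separate cell types in which the genes are on throughout from those in which a few cells carry them. In each thinned cell the UMIs of H2-Aa, H2-Ab1, H2-Eb1 and Cd74 were summed; no cell was too shallow to thin. The median was 179 UMIs in WT and 148 in Xbp1dIEC Cd209a cells, 59 and 54 in B-2 cells and 46 and 41 in B-1 cells. It was 3 and 2 in Folr2/Retnla macrophages, 1 and 0 in large macrophages and 0 in T cells of both libraries. A level of 20 UMIs, equal to 10000 CPM, was reached by 99.1% and 98.4% of B-2 cells and 96.7% and 95.2% of B-1 cells. Large macrophages reached it in 10 of 2247 WT and 3 of 2165 Xbp1dIEC cells (0.445% and 0.139%), and T cells in 4 of 287 and 4 of 227 (1.39% and 1.76%).

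**Figure D3:**
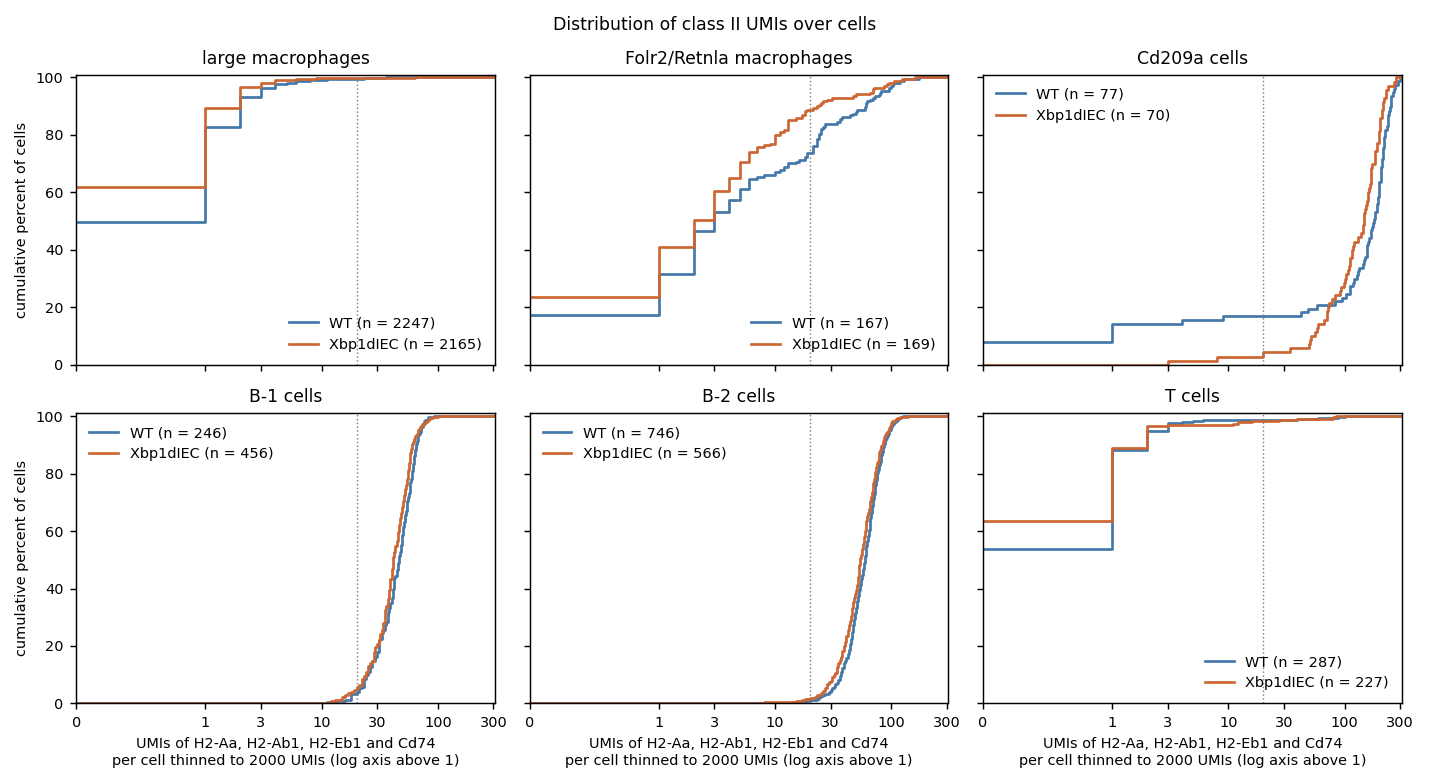
Cumulative percent of cells against UMIs of H2-Aa, H2-Ab1, H2-Eb1 and Cd74 per cell thinned to 2000 UMIs, on an axis that is logarithmic above 1, for WT (blue) and Xbp1dIEC (orange) in each gate; the dotted line marks 20 UMIs. B cells rise steeply around medians of 41 to 59, Folr2/Retnla macrophages spread from 0 to 172 UMIs, and the WT Cd209a curve has a step of 13 cells left of the line.

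Folr2/Retnla macrophages were uneven. The variance of the thinned sum over its mean was 51.04 in WT and 53.1 in Xbp1dIEC, with 48.5 and 29.3 in Cd209a cells and 48.8 and 43.5 in T cells, against 5.20 and 5.21 in B-1 cells and 6.59 and 7.20 in B-2 cells. A level of 20 UMIs was reached by 44 of 167 WT cells (26.3%, 19.8 to 33.7) and by 19 of 169 Xbp1dIEC cells (11.2%, 6.91 to 17.0). With other cuts the intervals overlapped: 10 UMIs were reached by 34.1% (26.98 to 41.9) and 23.1% (16.95 to 30.2), and 40 UMIs by 13.8% (8.94 to 19.9) and 7.10% (3.72 to 12.1). This is a range cut from a score and not a cell type, and 17 and 9 cells lay near the cut, at 15 to 24 UMIs. Without thinning, 26.3% and 10.7% of cells were at 10000 CPM or more.

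Those 44 and 19 cells held 85.1% of the gate's classical class II and Cd74 UMIs in WT and 67.1% in Xbp1dIEC. The remaining 123 and 150 cells had 1567 CPM (1503 to 1632) in WT and 1577 CPM (1512 to 1644) in Xbp1dIEC. The upper range stood at 26131 and 33590 CPM. Since the ranges were cut on these same UMIs, the levels within them describe the cut and do not compare the genotypes.

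The cells in the upper range also differed in genes that had no part in the cut. Ccr2, a receptor of cells that arrive from blood monocytes, was at 641 CPM in the upper and 104 in the lower range in WT, and at 731 and 138 in Xbp1dIEC. Adgre1 (F4/80) was at 89.2 and 362 CPM in WT and 88.6 and 273 in Xbp1dIEC. Timd4, a marker of long-resident macrophages, was at 16.2 and 81.8 CPM in WT and was not seen against 46.7 CPM in Xbp1dIEC, where 0 UMIs in the 135397 UMIs of that range allow 22.2 CPM. Retnla was at 25269 and 9647 CPM in WT and 34188 and 14775 in Xbp1dIEC.

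H2-DMa, H2-DMb1 and Ciita were also higher in the upper range in both libraries. H2-DMb1 was at 333 and 49.9 CPM in WT and 458 and 61.5 in Xbp1dIEC, and Ciita at 12.2 and 1.39 CPM and 29.5 and 2.12 CPM. The Ciita levels rested on 8 UMIs in WT and 7 in Xbp1dIEC over both ranges. H2-DMb2, H2-Oa and H2-Ob had too few UMIs to show whether they were higher. H2-DMb2 was at 12.2 and 9.71 CPM in WT, H2-Oa at 2.03 and 2.77 and H2-Ob at 2.03 and 6.24. In Xbp1dIEC no UMI of these 3 genes was seen in the upper range, which allows 22.2 CPM each. Their lower range levels there were 5.66, 4.24 and 4.24 CPM. The B cell gene Cd79a was at 32.5 and 20.1 CPM in WT and 7.39 and 21.9 in Xbp1dIEC, with no common direction. The immunoglobulin genes summed were higher in the upper range in both libraries, at 243 and 185 CPM in WT and 266 and 166 in Xbp1dIEC; their part in the class II difference was not tested.

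**Figure D4:**
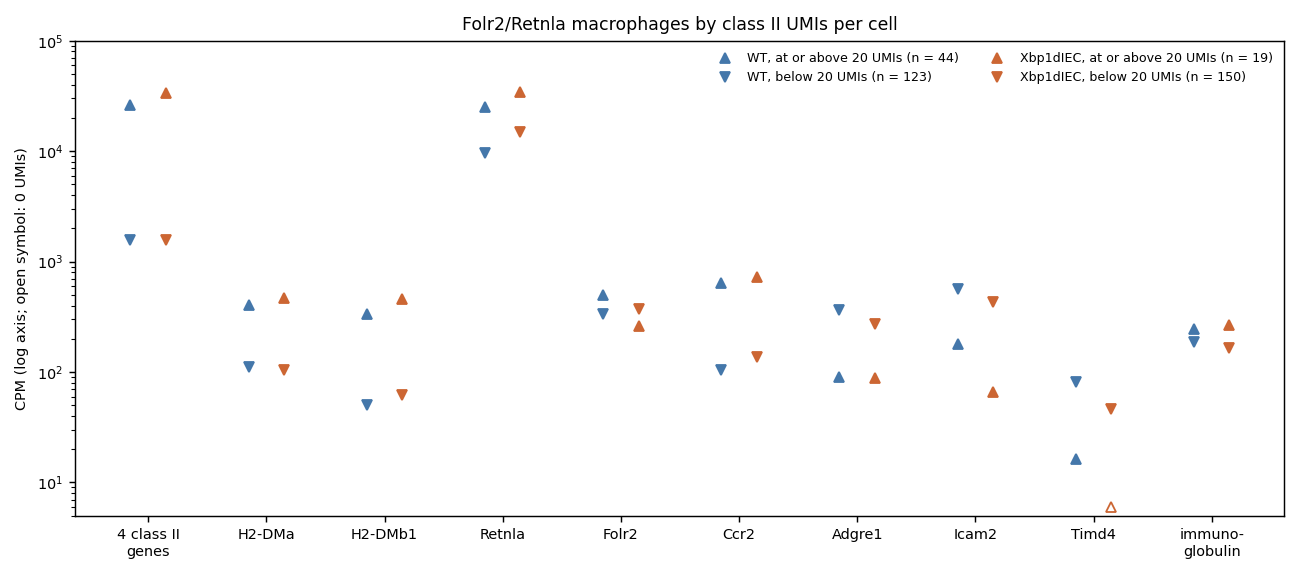
CPM on a log axis of class II genes and marker genes in Folr2/Retnla macrophages at or above (upward triangles) and below (downward triangles) 20 class II UMIs per thinned cell, for WT (blue) and Xbp1dIEC (orange); an open symbol marks 0 UMIs and the 4 class II genes are those of the cut. Ccr2 and Retnla are higher and Adgre1, Icam2 and Timd4 lower in the upper range in both libraries, while the lower range has 1567 and 1577 CPM of class II.

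In the Folr2/Retnla gate, cells with Timd4 UMIs had less class II RNA in both libraries, while the split by Folr2 had no common direction. Cells without a Timd4 UMI had 9273 CPM of the classical genes and Cd74 in WT and 5157 in Xbp1dIEC, and cells with 1 or more had 3511 and 835 CPM, from 41 and 29 cells. Cells with 1 to 2 Folr2 UMIs had 7591 and 5906 CPM, and cells with 3 or more had 8008 and 2752 CPM. Within each of these 4 subsets, which were not cut on class II, Xbp1dIEC was lower, with log2 ratios of -0.85 and -2.07 without and with Timd4 and of -0.36 and -1.54 at few and more Folr2 UMIs.

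Among large macrophages the same relation to Timd4 was seen at a far lower level. Cells with no Timd4 UMI had 759 CPM of the 4 genes in WT and 509 in Xbp1dIEC, cells with 1 to 2 had 393 and 262, and cells with 3 or more had 331 and 236. Igkc, a measure of free RNA, was flat over these subsets, at 117, 119 and 121 CPM in WT and 87.0, 97.3 and 89.3 in Xbp1dIEC. Without the 10 and 3 cells at 20 UMIs or more, the cells with no Timd4 UMI still had 566 and 382 CPM. Those 10 and 3 cells had Ccr2 at 476 and 646 CPM, against 5.99 and 5.69 in the rest, and no Timd4 UMI.

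Cd209a cells split into a large class II group and a small group with little. In WT 64 of 77 cells (83.1%, 72.9 to 90.7) and in Xbp1dIEC 68 of 70 (97.1%, 90.1 to 99.7) were at 20 UMIs or more. The 13 WT cells below it had 571 CPM (422 to 754) of the 4 genes. The ambient estimate of the gate was 606 CPM, but 351 CPM with Igkc alone. In these 13 cells Lyz2 was at 49615, Adgre1 at 524 and Ly6c2 at 1235 CPM. Their Cd209a was at 524 CPM, against 1823 in the upper range. Lyz2, Adgre1 and Ly6c2 are macrophage and monocyte genes, so in WT the gate holds cells that its name does not describe. The upper range was at 93441 CPM in WT and 72179 in Xbp1dIEC, and dendritic genes were present in it: Flt3 was at 68.8 and 52.3 CPM, against 0.174 and 0 in large macrophages of WT and Xbp1dIEC.

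In T cells most RNA of the classical genes and Cd74 was in a handful of cells. The 4 cells at 20 UMIs or more of each library held 81.2% and 76.5% of the gate's UMIs of the classical genes and Cd74, at 39911 and 27990 CPM. They had Lyz2 at 12580 and 5230 CPM, against 1240 and 1338 in the others, and Ccr2 at 503 and 212 CPM. The remaining 283 and 223 cells had 316 and 272 CPM, under the ambient estimates of 834 and 618 CPM and also under those from Igkc alone, 545 and 385 CPM. Since these cells were cut on the same 4 genes and lay under both estimates, the comparison cannot show whether they make any. H2-DMa, at 56.0 and 41.4 CPM in the remaining cells, stood above its gate ambient estimates of 18.4 and 13.3 CPM, and H2-Ob, at 23.5 and 24.6 CPM, above 7.06 and 4.99 CPM.

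Lower levels in Xbp1dIEC than in WT were seen for most members in most gates. The summed difference was smallest in B cells and next in Cd209a cells, and largest in Folr2/Retnla macrophages. The summed log2 ratio of Xbp1dIEC over WT was -0.45 (interval -0.49 to -0.41) in large macrophages, -0.82 (-0.86 to -0.78) in Folr2/Retnla macrophages, -0.20 (-0.22 to -0.18) in Cd209a cells, -0.12 (-0.13 to -0.10) in B-1 cells, -0.13 (-0.14 to -0.12) in B-2 cells and -0.55 (-0.65 to -0.44) in T cells. Ratios had 1 CPM added to each level. Whether gates differ in this ratio beyond the difference between pools was not testable with 1 library each. Free RNA was lower in Xbp1dIEC as well: Igkc was at 119 and 90.6 CPM in large macrophages. After subtraction of the ambient level the log2 ratio of large macrophages was -0.45 and that of Folr2/Retnla macrophages -0.85.

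**Figure D5:**
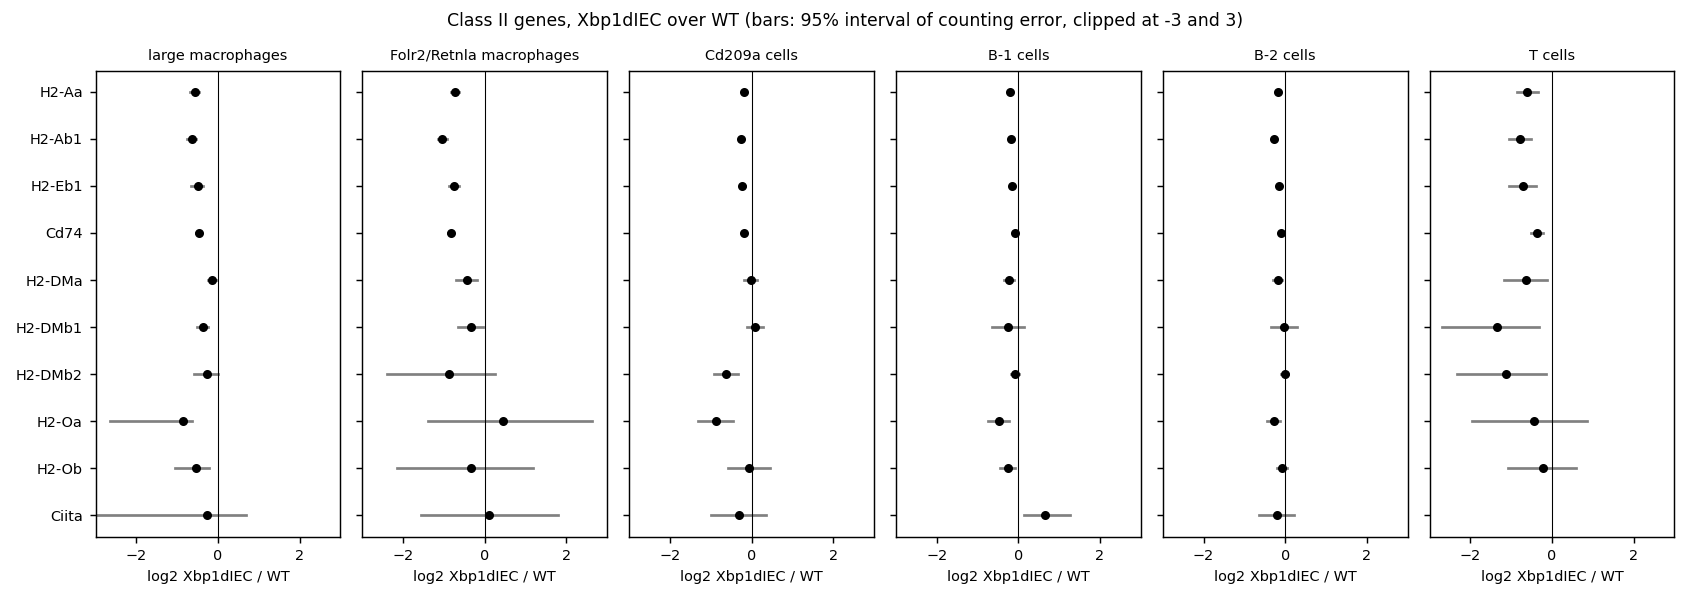
Log2 ratio of Xbp1dIEC over WT for each of the 10 genes (rows) in each gate (panels), with 95% intervals of counting error clipped at -3 and 3; Ciita in T cells, with 3 and 2 UMIs, is left out. Points lie left of 0 for 8 of 10 genes in Folr2/Retnla macrophages, with H2-Ab1 at -1.04, and for 10 of 10 in large macrophages and B-2 cells, where 58.0%, 60.3% and 55.5% of all genes do, and Ciita in B-1 cells is at 0.65.

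In Folr2/Retnla macrophages 8 of 10 members were lower in Xbp1dIEC by over 1.2-fold and 1 was higher, where 30.1% of 9261 genes were lower and 18.6% higher by that much. Past 1.5-fold 5 were lower and 0 higher, against 11% and 6.66%. The 4 most abundant members were all among them. H2-Ab1 was lower by 2.06-fold (log2 ratio -1.04, -1.16 to -0.93), Cd74 by 1.79-fold (-0.84, -0.89 to -0.78), H2-Eb1 by 1.68-fold (-0.75) and H2-Aa by 1.66-fold (-0.73). H2-DMa (-0.45, -0.70 to -0.20) and H2-DMb1 (-0.34, -0.65 to -0.04) were lower by less. H2-DMb2, H2-Oa, H2-Ob and Ciita rested on 5 to 20 UMIs per library, and their intervals include 0. The median log2 ratio was -0.59 over the members and -0.07 over all genes.

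In large macrophages 9 of 10 members were lower by over 1.2-fold, where 17.8% of 11991 genes were, and their median log2 ratio was -0.48 against -0.05 for all genes. The count rests in part on low levels: Ciita, on 11 and 4 UMIs, had an interval of -3.18 to 0.68, and with 10 CPM added in place of 1 CPM only 5 of 10 members were past 1.2-fold. H2-Ab1 was at -0.63 (-0.75 to -0.54), H2-Aa at -0.56, H2-Eb1 at -0.49 and Cd74 at -0.47, all genes whose levels were at most 1.89 times the ambient estimate. H2-DMb1 was at -0.37 (-0.52 to -0.24). H2-DMa, the member most clearly above ambient in UMIs, was at -0.16 (-0.25 to -0.06) and was the only one not past 1.2-fold. H2-Oa, at 47 and 12 UMIs, was 1.02 and 0.556 times its ambient estimate. Past 1.5-fold 2 members were lower, against 2.79% of genes.

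In Cd209a cells 4 of 10 members were lower by over 1.2-fold, close to the 34.6% of 6717 genes that were, and 2 were past 1.5-fold, against 17.1%. The count past 1.2-fold depends on the gate: with each marker minimum raised by 1 UMI it was 7 of 10, for which the share of all genes was not computed. The members past that size were H2-Oa (-0.88, -1.32 to -0.47), H2-DMb2 (-0.62, -0.92 to -0.32), Ciita (-0.31, -0.996 to 0.36) and H2-Ab1 (-0.26, -0.31 to -0.22). H2-DMa (-0.02, -0.18 to 0.14), H2-DMb1 (0.08, -0.10 to 0.27) and H2-Ob (-0.05, -0.57 to 0.46) had intervals around 0. So H2-DMb2 was lower and H2-DMb1 was not, which gives the lower H2-DMb2 share of Xbp1dIEC above.

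B cells showed the smallest ratios. In B-2 cells 2 of 10 members were lower by over 1.2-fold, against 21.8% of 9806 genes, namely H2-Oa (-0.28, -0.44 to -0.12) and H2-Ab1 (-0.27, -0.31 to -0.23). H2-DMb2 (-0.01, -0.09 to 0.07) and H2-DMb1 (-0.02) were level. Past 1.5-fold 0 members were lower and 0 higher, against 5.96% and 4.66% of genes. In B-1 cells 1 of 10 was lower, against 21% of 9649 genes, and 1 was higher, against 26.3%. Past 1.5-fold 0 were lower, against 6.83%, and 1 was higher, against 9.63%. The lower member was H2-Oa (-0.48, -0.74 to -0.22). Ciita was the higher one, at 18.5 CPM in WT (36 UMIs) and 29.7 CPM in Xbp1dIEC (109 UMIs), a log2 ratio of 0.65 (0.13 to 1.27), while the genes it controls were lower or level, as H2-Aa at -0.21 and Cd74 at -0.08. In T cells 8 of 9 measured members were lower by over 1.2-fold, against 25.4% of 8017 genes, and 6 past 1.5-fold, against 10.7%. The 4 cells per library described above hold most of these UMIs. With dendritic genes not excluded 2 of 9 were lower and 4 higher by over 1.2-fold, for which the share of all genes was not computed.

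B-1 cells with different B-1 markers had like levels. Cells with Ahnak2 UMIs but none of Fbxw13 or Prkar2b had 22537 CPM of the classical genes and Cd74 in WT and 21177 in Xbp1dIEC, and cells with the reverse had 22069 and 21080 CPM. The WT gate held 91 of the former and 47 of the latter, and the Xbp1dIEC gate 81 and 196.

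Of 26 other genes of the pathway, taken from a fixed list, few went with the members in macrophages. In large macrophages 24 were measured, 2 were lower by over 1.2-fold and 1 was higher, against 17.8% and 7.53% of all genes. The lower ones were Ifi30, a lysosomal reductase that opens disulphide bonds of antigens, at 168 CPM in WT and 108 in Xbp1dIEC (log2 ratio -0.64, -0.72 to -0.56), and the protease Ctsl at 159 and 123 CPM (-0.36). March1, a ubiquitin ligase that takes class II off the surface, was the higher one at 19.2 and 24.5 CPM (0.34, 0.16 to 0.55), and the costimulator Cd86 was next at 32.2 and 38.5 CPM (0.25). In Folr2/Retnla macrophages 21 were measured, 5 lower and 6 higher, against 30.1% and 18.6% of all genes, with Ctsl (-0.56) and Ifi30 (-0.44) again lowest and Cd86 (0.51, -0.07 to 1.14) and March1 (0.45, -0.03 to 0.97) highest.

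In Cd209a cells 14 of 20 measured pathway genes were lower and 1 was higher, against 34.6% and 25.9% of all genes. The lowest were Cd83, which shields class II from March1, at 44.2 and 19.3 CPM (-1.16, -2.42 to -0.09) and Ctsl at 67.2 and 30.8 CPM (-1.10, -2.07 to -0.25), and the highest were Nfyc (0.32) and Nfya (0.12), subunits of the Y box factor. Of the WT Cd209a cells, 13 of 77 were the Lyz2-rich cells under 20 class II UMIs described above, against 2 of 70 in Xbp1dIEC. Ctsb and Ctsd, at 477 and 256 CPM in the WT Cd209a gate, were at 1241 and 1190 CPM in WT large macrophages. The part of the 13 and 2 cells in the Cd209a ratios was not tested. In B-1 cells 9 of 25 pathway genes were lower and 3 higher, against 21% and 26.3%. Prdm1, a repressor of Ciita, was lowest (-1.08, -3.06 to 0.11, on 10 and 7 UMIs) with the protease Lgmn (-0.71). Pax5, the B cell identity factor, was highest at 63.8 and 103 CPM (0.69, 0.40 to 1.00), with Nfya (0.47). In B-2 cells 10 of 24 were lower and 1 higher, against 21.8% and 16.1%, from the costimulator Cd80 (-0.995) and Ctsl (-0.59) to Creb1 (0.32) and Nfyb (0.22). In T cells 7 of 16 were lower and 3 higher, against 25.4% and 25.9%, from Ctsl (-1.08) and Nfyc (-0.77) to Irf8 (1.37) and Rfxap (0.52).

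Across the 12 sums of gate and library, the log2 level of Ciita correlated with the mean of H2-Aa, H2-Ab1, H2-Eb1 and Cd74 at a Pearson r of 0.939, H2-DMa at 0.947, H2-Oa at 0.877, H2-DMb2 at 0.815, H2-Ob at 0.772 and H2-DMb1 at 0.681. Among 3424 other genes at 50 CPM or more in 1 of the sums, the most alike were Arf6 (0.975), Lactb (0.962), Plekho1 (0.960), Hcls1 (0.954), Lsp1 (0.940), Csk (0.923), Kdm7a (0.922) and Cdk9 (0.921). Their range was narrower than that of H2-Aa, H2-Ab1, H2-Eb1 and Cd74. Arf6 was at 77.9 CPM in WT large macrophages and 159 CPM in WT Cd209a cells. Plekho1 ranged most widely among them, at 4.92 and 147 CPM in these gates, against 81.3 and 14691 CPM for H2-Aa. These values describe 12 points that share 2 libraries and their free RNA, and no test was made.

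Of a library's class II UMIs 61.9% in WT and 61.7% in Xbp1dIEC lay in cells of no gate. B-2 cells had 18.3% and 13.9%, B-1 cells 7.40% and 14.8% and Cd209a cells, with 1.27% and 1.15% of the cells, 7.56% and 6.94%. Large macrophages, with 37.1% and 35.4% of the cells, held 1.93% and 1.18%. B cells that met neither B gate, 682 and 808 of them, held 23.96% and 29.8%, which are part of the share in no gate, at 23859 and 18920 CPM of the classical genes and Cd74. The other ungated cells, 1606 and 1652, held the rest of it, 38.0% and 31.9%, and 468 and 283 of these carried markers of 2 lineages.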

How the data were processed

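The authors deposited 1 table of UMI counts per gene and cell barcode for each library, unnormalized. Per the submitters' processing notes, Cell Ranger 2.2.0, Seurat 2.3.0 and mm10 were used; whether counting used strand is not given in the sources used here, and BC051537 and Gm20513 overlap H2-Oa and H2-Eb1. Cells with at least 500 UMIs, 200 genes and under 10% mitochondrial UMIs were kept, and doublets called by Scrublet (scanpy 1.11.5, expected rate 5%) were removed: 140 in WT and 113 in Xbp1dIEC. Gates used lineage marker UMIs; the limit on dendritic genes in lymphocyte gates was added after T cell levels had been seen. UMIs were summed per gate and library as CPM, with exact Poisson, Clopper-Pearson and conditional binomial intervals (scipy 1.17.1). Genes with 10 or more UMIs over both libraries of a gate count as measured. Cells were thinned to 2000 UMIs, with cuts of 20 and, as alternatives, 10 and 40 class II UMIs. Alternatives also changed the gates, doublet step, filter, total and constant added. No empty droplets were analysed here, so free RNA was estimated from foreign genes. Pathway genes named are those with the 2 lowest and 2 highest log2 ratios in a gate. The members and lists were chosen with earlier results of these data known. The log2 ratio and its interval were tested on simulated gate sums that held counting error only, and the other steps were not.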

Additional observations from a re-analysis of the deposited data

Results flagged for a closer look

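H2-Aa, H2-Ab1, H2-Eb1 and Cd74 were summed in large macrophages with 0 and with 3 to 10 Retnla UMIs. The log2 ratio of Xbp1dIEC over WT had opposite signs in these 2 subsets. Cells with 1 to 2 Retnla UMIs were not summed separately. Cells with 0 Retnla UMIs, 902 in WT and 1224 in Xbp1dIEC, had 419 and 269 CPM, a log2 ratio of -0.64. Cells with 3 to 10 Retnla UMIs, 330 and 162 of them, had 699 and 961 CPM, a log2 ratio of 0.46. The difference between these ratios was not tested, as each genotype is 1 library. Without cells at 20 class II UMIs or more, 325 and 160 cells with 3 to 10 Retnla UMIs remained, at 547 and 511 CPM, and the log2 ratio was -0.10 (-0.22 to 0.02).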

How the results depend on the processing

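Summed levels were lower in Xbp1dIEC in each gate under each alternative, except in T cells when dendritic genes were not excluded from lymphocyte gates. Log2 ratios that moved beyond their counting interval were as follows. Scaled to a total without immunoglobulin, ribosomal, mitochondrial and member genes they were -0.39 in large macrophages, -0.13 in Cd209a cells, -0.0999 in B-1 and -0.0956 in B-2 cells. Without Cd74 they were -0.18 in B-1 cells, -0.18 in B-2 cells and -0.70 in T cells, and with ambient RNA subtracted -0.67 in T cells. Stricter gates gave -0.53 in large macrophages, -0.97 in Folr2/Retnla macrophages and -0.29 in Cd209a cells. With other lineages not excluded they were -0.27, -0.77 and -0.12 in these gates, -0.0777 in B-1, -0.15 in B-2 and -0.23 in T cells. Keeping doublets gave -0.62 in large macrophages, and under 5% mitochondrial UMIs gave -0.11 in B-2 cells. With dendritic genes not excluded, chosen after seeing the data, the values were -0.0639 in B-1, -0.15 in B-2 and 0.29 in T cells, where H2-Aa was at 0.24, H2-Ab1 at 0.33, H2-Eb1 at 0.27 and Cd74 at 0.35. Over these alternatives the count of members past 1.2-fold lower ran from 5 to 9 in large macrophages (5 with 10 CPM added), 7 to 10 in Folr2/Retnla macrophages, 2 to 7 in Cd209a cells (2 with that reduced total, 7 with stricter gates), 0 to 3 in B-1 and in B-2 cells, and 2 to 8 in T cells. The H2-DMb2 share moved mostly where other lineages were not excluded, to 24.5% in WT and 29.4% in Xbp1dIEC large macrophages, 20.1% and 10.6% in Folr2/Retnla macrophages and 40.1% and 34.3% in Cd209a cells. The causes were not tested. No paired analysis was possible because each genotype is 1 library. Genes under 10 UMIs are limited by depth.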
